A study of Homo sapiens with 8 samples.

Results

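Cyclin K and its kinases are 3 genes, CCNK, CDK12 and CDK13. They were taken by name from the 19035 gene symbols of the expression table, all 3 were found, and all 3 passed the filter on low values. The RNA came from the human breast cancer line KPL-1 with a Cas9 nuclease that doxycycline switches on (iCas9). All 6 RNA libraries came from day 7 of doxycycline: 3 of an empty guide vector (sgEmpty, genotype labelled WT) and 3 of a guide that targets SETD1A (sgSETD1A, genotype labelled SETD1A knockout). Whether replicates were separate cultures, whether the cells were 1 clone, and what share of alleles was edited cannot be read from the labels, so p-values here cover the spread among these libraries alone, and that spread may be technical. A pool of 5995 guides (sgKMT2pool) was also counted in the same cells, in 1 library at day 0 and 1 at day 14; 0 of its guides carry the name of CCNK, CDK12 or CDK13.

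Cyclin K is a regulatory subunit that binds the kinases CDK12 and CDK13 and is needed for their activity. The complexes phosphorylate the tail of RNA polymerase II while it elongates, and loss of CDK12 is known for reduced output of long DNA repair genes and for early transcript ends. SETD1A is a histone H3 lysine 4 methyltransferase. Its FLOS region, which lies outside the catalytic SET domain, has been described as the contact for cyclin K, and the title of the study links a non-enzymatic function of SETD1A to cyclin K. The comparison here asks whether transcripts of cyclin K and its partners differed in cells with the SETD1A guide.

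The windows of 250 bases before the annotated starts of the 3 genes are shown because SETD1A acts in a complex with CXXC1, a protein that binds CG pairs, and because they lie directly upstream of the annotated transcript starts. They come from RefSeq on GRCh38.p14, not from the hg19 build that the submitters' processing notes name, and were matched by symbol for 3 of 3 genes. The table holds 2 windows for CDK13; the one that ends at the start of the annotated gene is shown, as for the other genes, and the counts given for CDK13 are of that window. All lie on the plus strand and are written 5′ to 3′, with CG pairs in capitals: chr14:99481159-99481408 for CCNK, chr17:39461236-39461485 for CDK12 and chr7:39950006-39950255 for CDK13.
CCNK: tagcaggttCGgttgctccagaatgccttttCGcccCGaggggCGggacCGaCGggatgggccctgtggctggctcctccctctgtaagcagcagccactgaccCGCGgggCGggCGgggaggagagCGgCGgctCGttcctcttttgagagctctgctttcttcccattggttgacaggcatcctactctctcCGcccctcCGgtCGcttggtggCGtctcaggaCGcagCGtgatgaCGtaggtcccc
CDK12: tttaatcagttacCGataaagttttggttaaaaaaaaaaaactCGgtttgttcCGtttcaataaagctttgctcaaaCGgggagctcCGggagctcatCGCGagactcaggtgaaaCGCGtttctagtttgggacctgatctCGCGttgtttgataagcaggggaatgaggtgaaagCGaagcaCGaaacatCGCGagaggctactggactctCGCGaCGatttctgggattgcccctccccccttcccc
CDK13: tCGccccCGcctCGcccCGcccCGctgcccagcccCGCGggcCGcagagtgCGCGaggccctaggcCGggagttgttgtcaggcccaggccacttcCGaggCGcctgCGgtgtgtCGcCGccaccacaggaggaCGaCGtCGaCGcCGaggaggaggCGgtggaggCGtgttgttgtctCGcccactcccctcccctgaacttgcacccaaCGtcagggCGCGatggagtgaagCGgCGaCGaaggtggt
The CCNK window holds 20 CG pairs, that of CDK12 18 and that of CDK13 30, against a median of 11 over 35116 windows of the same length. Windows with fewer CG pairs made up 67.6%, 63.2% and 87.6% of all windows, respectively. The CCNK window holds the GC box GGGCGG, counted on both strands with overlaps allowed, 4 times, which 7.63% of windows reach or pass; CDK13 holds it 1 time and CDK12 not at all, and 42.6% of windows hold it. The CCNK window also holds the CCAAT box 1 time (CCAAT on either strand, in 32.01% of windows). The CRE core TGACG occurs 1 time in the windows of CCNK and CDK13 and not in that of CDK12 (21.2% of windows hold it), and the ETS core CCGGAAG is in none of the 3 (8.52% of windows hold it). The CDK12 window is lower in G and C (48.8%, against 65.2% for CCNK and 72.0% for CDK13). It holds the element TCTCGCGA, the core recognised by the factor BANP, 3 times over both strands without overlap, where 1.03% of windows hold it at all and 0.0683% hold it 3 or more times. These letters were picked for display after the sequences were seen. Binding of any factor was not measured.

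Markers of a luminal epithelial line were abundant. Each of 8 epithelial and luminal markers averaged at least 39.9 TPM (transcripts per 1000000), and their summed level ran from 14370 to 15441 TPM in sgEmpty and from 16353 to 16870 TPM in sgSETD1A, with 6 of the 8 called higher and 0 lower (limma; also 0 lower at an unadjusted p under 0.05), where 28.0% of all tested genes were called higher. With median-ratio rescaling 3 were called higher and 1 lower, and with quantile normalization 5 and 1. Those rescalings called 14.9% and 18% of all tested genes higher, and 2333 and 2056 of 11885 lower. The part of these markers in the results below was not tested. The summed level of 9 stromal and immune markers ran from 4.35 to 6.06 TPM in sgEmpty and from 4.08 to 6.84 TPM in sgSETD1A, with PTPRC, CD3E and CD14 at or under 0.233 TPM. The target of the guide was lower in each sgSETD1A library: SETD1A measured 17.5, 17.5 and 18.1 TPM in sgEmpty and 9.36, 11.3 and 10.7 TPM in sgSETD1A, a change of -0.71 log2 (limma adjusted p = 9.13e-05). Of the sgSETD1A libraries, replicate 1 stood apart along principal component 2, which held 14.3% of the variance, with a score of 12.8 against -5.61 and -6.55. Without it 5094 genes were called in place of 4932. Results without it are given for CDK12, CDK13 and the gene lists whose counts it changed.

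CCNK was the most abundant of the 3 transcripts and the only one whose change passed the test. Its level was 86.6, 82.5 and 87.3 TPM in sgEmpty replicates 1, 2 and 3, and 98.5, 96.1 and 98.7 TPM in the sgSETD1A replicates. The lowest sgSETD1A library lay 8.87 TPM above the highest sgEmpty library. The means were 85.5 ± 2.58 and 97.8 ± 1.45 TPM (SD, n = 3 each), 14.4% higher in sgSETD1A. On the log2(TPM + 1) scale CCNK rose by 0.19 (SE 0.038; 95% interval 0.11 to 0.28; limma adjusted p = 0.00354 over 11885 tested genes). In that comparison limma called 41.5% of all tested genes, 28.0% higher and 13.5% lower, so a call as such was common. Separate groups were likewise common, at 53.7% of tested genes. The exact two-sided permutation test gave p = 0.10, the smallest that 3 against 3 libraries allow. In bulk RNA, a shift in which cells are present and a shift in RNA per cell cannot be told apart.

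The size of the CCNK change was moderate within the whole response. Across all tested genes the median difference was 0.073 log2, and CCNK lay 0.12 above it. A larger rise than that of CCNK was measured for 25.4% of all tested genes and for 75.3% of the genes called higher, whose median rise was 0.26 log2. Among 834 genes within 1.25-fold of its sgEmpty level, 30.8% were called higher and 17.0% changed by more in that direction. The call of CCNK held under both rescalings of the libraries. Median-ratio rescaling, which called 34.5% of genes (14.9% higher), lowered the CCNK change to 0.11 log2 (limma adjusted p = 0.0421). Quantile normalization, which called 35.3% (18% higher), gave 0.15 log2 (limma adjusted p = 0.0113).

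**Figure D1:**
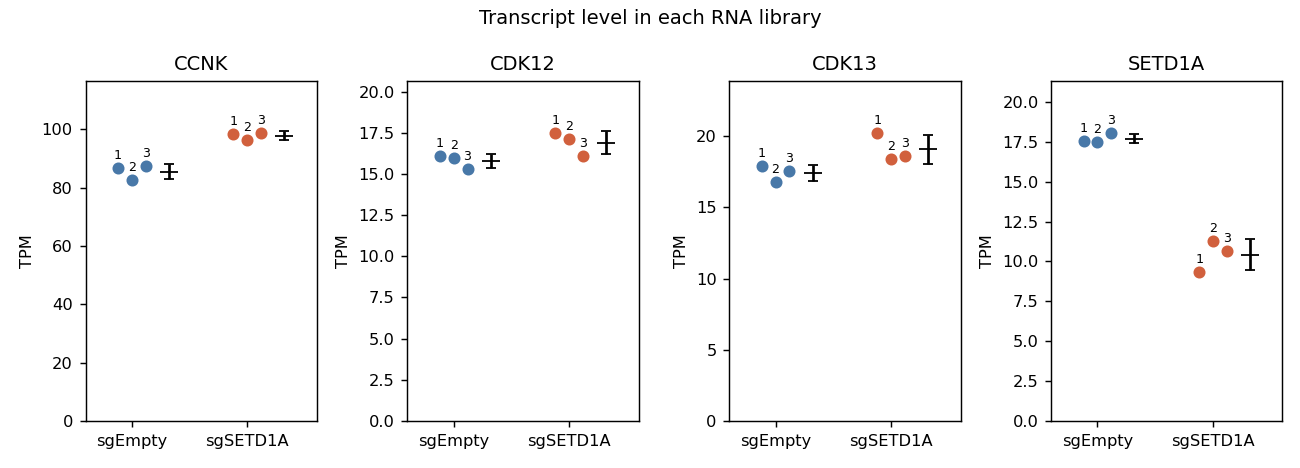
Transcript level in TPM (vertical axes, starting at 0) of CCNK, CDK12, CDK13 and SETD1A in each of the 3 sgEmpty and 3 sgSETD1A libraries; numbers are replicates, and the bar beside each group is the mean with its SD. The CCNK groups are separate, at 82.5 to 87.3 and 96.1 to 98.7 TPM, while those of CDK12 overlap and those of CDK13 lie 0.485 TPM apart.

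CDK12, the kinase most often linked to DNA repair gene expression, did not pass the test. It measured 16.1, 15.95 and 15.3 TPM in sgEmpty and 17.5, 17.1 and 16.1 TPM in sgSETD1A. The groups overlapped, because sgSETD1A replicate 3 lay just under sgEmpty replicate 1. The means were 15.8 ± 0.432 and 16.9 ± 0.713 TPM (SD, n = 3 each), with a difference of 0.092 log2 (SE 0.056; 95% interval -0.033 to 0.22; limma adjusted p = 0.211; exact permutation p = 0.20). The interval runs from -2.27% to 16.3% on that scale. Without sgSETD1A replicate 1 the difference was 0.068 log2 and after median-ratio rescaling 0.018 log2.

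CDK13, the paralog of CDK12 that shares cyclin K, did not pass the test either. Its levels were 17.9, 16.8 and 17.5 TPM in sgEmpty and 20.2, 18.4 and 18.6 TPM in sgSETD1A. Each sgSETD1A library lay above each sgEmpty library, by at least 0.485 TPM, and the groups did not overlap with sgSETD1A higher in 36.4% of all tested genes. The means were 17.4 ± 0.580 and 19.1 ± 1.01 TPM (SD, n = 3 each), with a difference of 0.13 log2 (SE 0.058; 95% interval -0.0039 to 0.26; limma adjusted p = 0.107; exact permutation p = 0.10). Replicate 1 was the highest of the sgSETD1A libraries, and without it the difference was 0.085 log2 (limma adjusted p = 0.247). After median-ratio rescaling it was 0.051 log2 (limma adjusted p = 0.543).

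Since CCNK passed the threshold and the kinases did not, the differences between the 3 changes were tested directly as ratios of TPM values within a library, which do not depend on how a library is scaled. CCNK over CDK12 was 5.37, 5.17 and 5.70 in sgEmpty and 5.63, 5.62 and 6.13 in sgSETD1A, and the groups overlapped. The log2 ratio differed by 0.097 between groups (exact permutation p = 0.30). CCNK over CDK13 was 4.84, 4.92 and 4.98 in sgEmpty and 4.87, 5.23 and 5.30 in sgSETD1A, a difference of 0.062 log2 (exact permutation p = 0.30). CDK12 over CDK13 was 0.901, 0.952 and 0.873 in sgEmpty and 0.865, 0.931 and 0.865 in sgSETD1A, a difference of -0.035 log2 (exact permutation p = 0.50). Adjusted over the 3 pairs by the Benjamini-Hochberg method these exact p-values were 0.45, 0.45 and 0.50, in a design that cannot go below 0.10. A difference between the change of CCNK and those of its kinases was therefore not shown. Single libraries moved these values both ways. CCNK over CDK12 was 0.056 log2 without sgSETD1A replicate 3 (exact permutation p = 0.40) and 0.065 without sgEmpty replicate 2 (exact permutation p = 0.60), and 0.13 without sgEmpty replicate 3 (exact permutation p = 0.10). CCNK over CDK13 was 0.039 log2 without sgSETD1A replicate 3 (exact permutation p = 0.50) and 0.10 without sgSETD1A replicate 1 (exact permutation p = 0.10). CDK12 over CDK13 was -0.00048 log2 without sgEmpty replicate 2 (exact permutation p = 1.0) and -0.017 without replicate 1 or 3 of sgSETD1A (exact permutation p = 0.80 each). It was -0.070 without sgSETD1A replicate 2 (exact permutation p = 0.20) and -0.063 without sgEmpty replicate 3 (exact permutation p = 0.30).

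**Figure D2:**
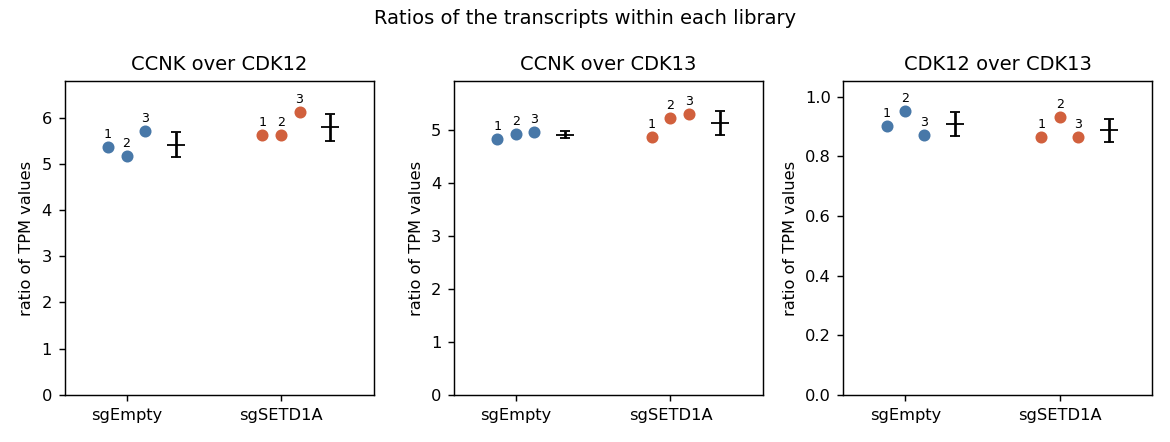
Ratio of TPM values (vertical axes, starting at 0) of CCNK over CDK12, CCNK over CDK13 and CDK12 over CDK13 in each library, with the mean and SD of each group beside the points and replicate numbers above them. The groups overlap in all 3 panels.

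The transcript of the cyclin was in excess over those of both kinases together. CDK12 and CDK13 summed to 34.0, 32.7 and 32.8 TPM in sgEmpty and to 37.7, 35.5 and 34.7 TPM in sgSETD1A. CCNK over this sum was 2.58 ± 0.0718 in sgEmpty and 2.72 ± 0.116 in sgSETD1A (SD, n = 3 each). These are transcript ratios per length, and protein levels were not analysed here.

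Within their families, cyclin K was among the abundant transcripts and both kinases were in the lower part. By mean sgEmpty TPM, CCNK was the sixth of 29 cyclin genes, below CCNB1, a mitotic cyclin (97.9 ± 4.18 TPM), and above CCNB2, another (57.5 ± 2.92 TPM; SD, n = 3 each). The ranges of these neighbours did not overlap that of CCNK in either group. CDK13 was at place 14 and CDK12 at place 15 of 21 CDK genes. CDK18, the next above, measured 18.3 ± 0.332 TPM and CDK19, a kinase of the Mediator complex and the next below, 15.6 ± 0.952 TPM (SD, n = 3 each). In sgEmpty the libraries of CDK13 lay above those of CDK12 and just below those of CDK18, whose lowest library all but touched the highest of CDK13, while those of CDK12 and CDK19 overlapped. All 3 genes held the same places in sgSETD1A, where the range of CDK18 (19.0 to 24.6 TPM) overlapped that of CDK13. CCNK was above 85.2% of all tested genes in sgEmpty, CDK13 above 45.7% and CDK12 above 43.0%.

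**Figure D3:**
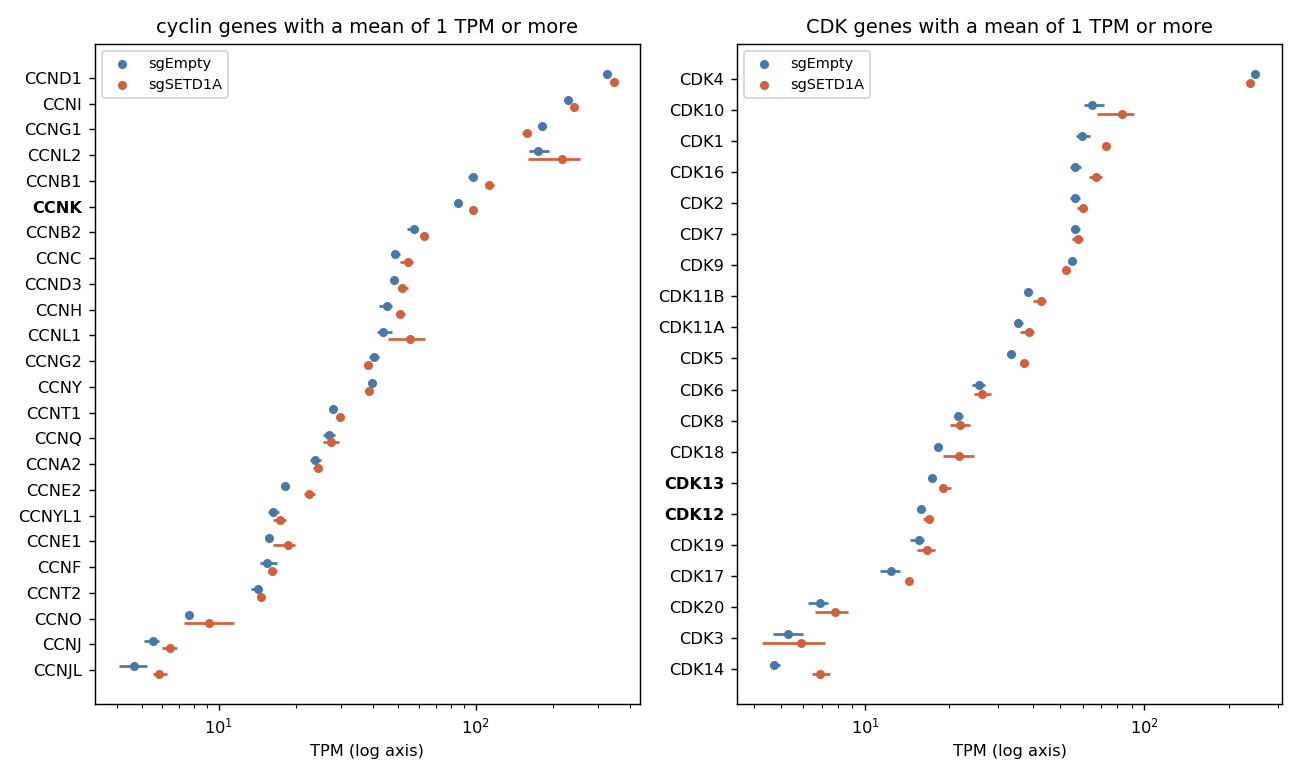
Level of cyclin genes (left) and CDK genes (right) with a mean of at least 1 TPM in sgEmpty, on a log axis in TPM; points are means of 3 libraries, lines run from the lowest to the highest library, and names of CCNK, CDK12 and CDK13 are bold. CCNK is the sixth cyclin from the top, and CDK13 and CDK12 are at places 14 and 15 of the CDK genes.

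Of 15 other cyclins and kinases that act on transcription, 6 rose, 0 fell (limma; also 0 at an unadjusted p under 0.05) and 9 did not pass. Their median difference was 0.12 log2, beside 0.073 over all genes tested, of which 28.0% were called higher and 13.5% lower. CDK10, a kinase that pairs with cyclin Q, went from 65.0 ± 5.77 to 83.2 ± 13.6 TPM (SD, n = 3 each), 0.34 log2 (limma adjusted p = 0.0313). CCNL1, a cyclin of the splicing-linked kinases CDK11A and CDK11B, rose by 0.34 log2, from 43.5 ± 3.27 to 55.7 ± 9.12 TPM (SD, n = 3 each; limma adjusted p = 0.0290). In both, sgSETD1A replicate 1 lay within the sgEmpty range, at 67.5 TPM for CDK10 and 45.6 TPM for CCNL1. CCNC of the Mediator kinase rose by 0.17 log2 (limma adjusted p = 0.0299) and CCNH of the TFIIH kinase by 0.16 log2 (limma adjusted p = 0.0424). CDK9, the elongation kinase that acts with cyclin T, measured 55.1 ± 0.0772 and 52.5 ± 1.70 TPM (SD, n = 3 each; limma adjusted p = 0.212). The reads of CDK11A and CDK11B, near-identical copies, may be split between them. The count of 6 rises changed with the scaling and with single libraries. Median-ratio rescaling called 14.9% of all tested genes higher and quantile normalization 18%, and 2333 and 2056 genes were called lower. With median-ratio rescaling 0 genes were called higher and CDK9 was called lower; with quantile normalization 2 were called higher, with no filter on low TPM 1, and with limma without its trend 0. The count of rises was likewise lower without sgEmpty replicate 1 (0), replicate 2 (1) or replicate 3 (3), or without sgSETD1A replicate 1 (5), replicate 2 (3) or replicate 3 (0). Of all 11885 tested genes, 3327 were called higher. The number was 2800, 2352 and 2628 without sgEmpty replicate 1, 2 and 3, and 3479, 2562 and 2449 without those of sgSETD1A. It was 3056 with limma without its trend and 3103 with the replicate number as a block. With no filter, where more genes were tested, it was 3044. With 1 library left out, 1289 to 1615 genes were called lower, beside 1605 with all 6. These numbers serve for the lists below too.

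**Figure D4:**
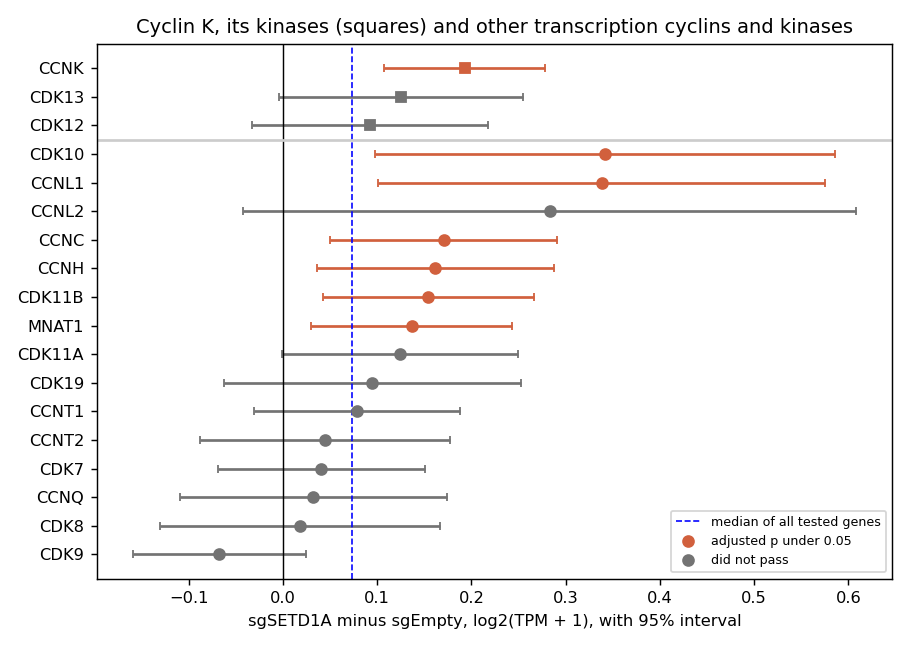
Difference between sgSETD1A and sgEmpty in log2(TPM + 1) (horizontal axis) with its 95% interval for CCNK, CDK13 and CDK12 (squares) and 15 other transcription cyclins and kinases (circles); the dashed line is the median of all tested genes. The interval of CCNK, 0.11 to 0.28, lies above that median of 0.073, while those of CDK12 and CDK13 include both it and 0.

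Among cyclins and kinases of the cell cycle, 5 of 12 tested rose and 0 fell (limma, also 0 at an unadjusted p under 0.05), with a median of 0.11 log2. Beside these counts, 28.0% of all tested genes were called higher and 13.5% lower. CCNE2, a cyclin of the start of replication, went from 18.1 ± 0.642 to 22.5 ± 1.13 TPM (SD, n = 3 each), 0.30 log2 (limma adjusted p = 0.00289). CDK1, the mitotic kinase, went from 59.8 ± 3.55 to 72.6 ± 2.44 TPM (SD, n = 3 each), 0.28 log2 (limma adjusted p = 0.00246). CCNE1 rose by 0.22 log2 (limma adjusted p = 0.0422) and CCNB1 by 0.21 log2 (limma adjusted p = 0.00540). CCNE1 was not called after either rescaling, and CCNB1 was not called after median-ratio rescaling. Median-ratio rescaling left 2 rises and 1 fall and quantile normalization 3 and 1, where 14.9% and 18% of all tested genes were called higher. Of all 11885 tested genes, 2333 and 2056 were then called lower. Under both rescalings the fall was CDK4 (limma adjusted p = 0.00976 and 0.00459). With no filter on low TPM there were 4 rises and 1 fall. Rises numbered 3 with limma without its trend and with the replicate number as a block. They also numbered 3 with replicate 1 or 2 of sgEmpty or replicate 3 of sgSETD1A left out. Of 15 further cyclin and CDK genes tested, 6 rose, 1 fell and the median was 0.15 log2, beside the same 28.0% and 13.5% of all tested genes. CDK14 rose most, from 4.71 ± 0.219 to 6.91 ± 0.538 TPM (SD, n = 3 each), 0.47 log2 (limma adjusted p = 0.00158), followed by CCNJL (0.27), CDK16 (0.25) and CDK18 (0.23). CCNJL (limma adjusted p = 0.0402) and CDK18 (limma adjusted p = 0.0479) were not called after either rescaling. CCNG1, known as a target of p53, was the 1 fall, from 180.7 to 158.7 TPM. The counts were 2 and 2 with median-ratio rescaling and 2 and 1 with quantile normalization, beside the same all-gene numbers under the rescalings as given above. In this list 3 rose when replicate 1 of sgEmpty was left out, and 2 when replicate 3 of sgEmpty or replicate 2 or 3 of sgSETD1A was, each with 1 fall. Without replicate 1 of sgSETD1A the rises numbered 7 in this list and 6 in the cell cycle list.

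Of 32 tested genes of RNA polymerase II and its elongation, the substrate of the cyclin K kinases among them, 11 rose, 0 fell (limma; also 0 at an unadjusted p under 0.05) and 21 did not pass. The median was 0.11 log2. Among all tested genes 28.0% were called higher and 13.5% lower. ELOA, a subunit of elongin, went from 19.6 ± 0.752 to 24.1 ± 0.461 TPM (SD, n = 3 each), 0.28 log2 (limma adjusted p = 0.00226). CTR9 and RTF1, which act in the PAF1 complex or with it, rose by 0.26 and 0.24 log2, and AFF4, a scaffold of the super elongation complex, by 0.23 log2. POLR2A, whose tail the kinases phosphorylate, is not among the 4 largest changes: it went from 124.0 ± 2.07 to 133.9 ± 0.986 TPM (SD, n = 3 each), 0.11 log2 (limma adjusted p = 0.0233), and was not called after either rescaling. The rises numbered 5 with median-ratio rescaling and 6 with quantile normalization, which called 14.9% and 18% of all tested genes higher. They numbered 7 without sgEmpty replicate 2 or sgSETD1A replicate 2, and 6 without sgSETD1A replicate 3.

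Genes of homologous recombination and the Fanconi pathway, the class best known for its need of CDK12, changed in both directions. Of 30 tested, 6 rose, 6 fell and 18 did not pass, and the median was 0.095 log2. For all tested genes the shares were 28.0% higher and 13.5% lower. RAD50, part of the MRN complex that binds broken DNA ends, was lower in each sgSETD1A library than in any sgEmpty library, with 29.9, 30.6 and 29.5 TPM in sgEmpty and 16.01, 15.6 and 15.2 TPM in sgSETD1A (-0.90 log2; limma adjusted p = 4.25e-06). ERCC4, a nuclease of crosslink repair, changed by -0.50, MDC1, an adaptor at DNA breaks, by -0.34 and PALB2, which recruits BRCA2, by -0.30 log2. Of 4 genes often named as dependent on CDK12, singled out after their values were seen, 1 was called with TPM as deposited. How many were called, and which, depended on the scaling. BRCA1 measured 6.63 ± 0.525 and 6.17 ± 0.714 TPM (SD, n = 3 each; limma adjusted p = 0.442), and ATR 14.96 ± 0.935 and 14.99 ± 1.02 TPM (SD, n = 3 each; limma adjusted p = 0.981). FANCI rose by 0.17 log2 (limma adjusted p = 0.0103), and FANCD2 measured 14.2 ± 0.0830 and 12.9 ± 0.0896 TPM (SD, n = 3 each; limma adjusted p = 0.0680). With median-ratio rescaling FANCI lost its call (0.096 log2; limma adjusted p = 0.110) and FANCD2 was called lower (-0.21 log2; limma adjusted p = 0.0147). With quantile normalization both were called, FANCI higher and FANCD2 lower (limma adjusted p = 0.0323 and 0.0261). These 4 genes do not stand for the list. ATM (-0.29 log2; limma adjusted p = 0.0365) and CHEK1 (-0.24 log2; limma adjusted p = 0.0445) were among the 6 falls. Both were called lower under both rescalings too, though the groups of CHEK1 overlapped. BRCA2 and WRN were not called with TPM as deposited but were called lower under both rescalings. In the whole list, median-ratio rescaling gave 2 rises and 9 falls and quantile normalization 3 and 9. Of all 11885 tested genes, 14.9% and 18% were then called higher, and 2333 and 2056 genes were called lower. With replicate 1 of sgEmpty or replicate 2 or 3 of sgSETD1A left out, 3 rose, and with sgEmpty replicate 3 left out, 3 fell.

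CDK12 loss is known, as background, to shift transcript ends. Of 22 tested genes of 3′ end processing, 5 rose, 3 fell and 14 did not pass, with a median of 0.11 log2. The share that fell was near the 13.5% of all tested genes called lower, and 28.0% of all tested genes were called higher. CPSF2, a subunit of the cleavage and polyadenylation specificity factor, had 52.8, 52.3 and 50.3 TPM in sgEmpty and 33.0, 30.8 and 31.5 TPM in sgSETD1A, which is -0.69 log2 (limma adjusted p = 1.01e-05; SE 0.046). CPSF3, the nuclease of the same complex, had 66.2, 63.3 and 60.6 TPM in sgEmpty and 45.7, 41.0 and 41.7 TPM in sgSETD1A (-0.56 log2; SE 0.054; limma adjusted p = 8.40e-05). In CPSF2 and CPSF3 the groups lay far apart relative to the spread of their libraries. CSTF1, of the cleavage stimulation factor, went from 112.0 ± 5.65 to 84.2 ± 2.83 TPM (SD, n = 3 each), -0.41 log2 (limma adjusted p = 1.94e-04). CPSF4 went the other way, from 67.6 ± 4.14 to 84.6 ± 6.07 TPM (SD, n = 3 each), 0.32 log2 (limma adjusted p = 0.00323). Median-ratio rescaling gave 2 rises and 5 falls, quantile normalization 4 and 3, and limma without its trend 3 and 3. The 2 rescalings called 14.9% and 18% of all tested genes higher, and 2333 and 2056 of 11885 genes lower. Leaving out any single library left 3 falls, with 3 rises where it was replicate 1 of sgEmpty or replicate 2 or 3 of sgSETD1A. There were 2 rises where it was replicate 2 of sgEmpty, and 7 where it was replicate 1 of sgSETD1A. Transcript ends themselves were not analysed here.

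**Figure D5:**
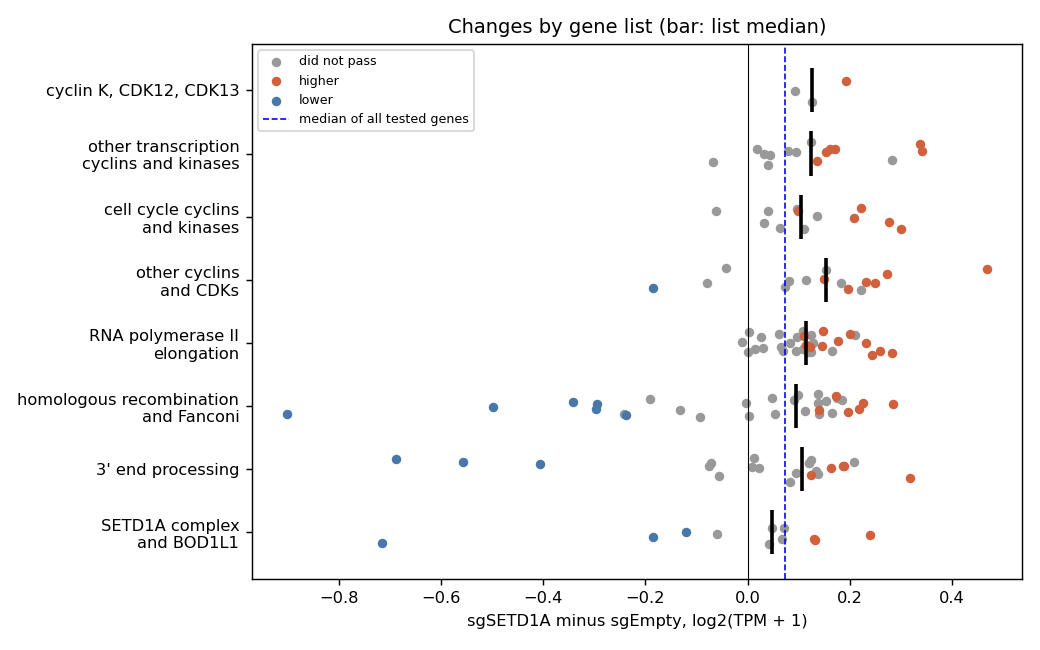
Difference between sgSETD1A and sgEmpty in log2(TPM + 1) (horizontal axis) for each tested gene of 8 lists (rows); red points were called higher, blue lower and grey did not pass, black bars are list medians and the dashed line is the median of all tested genes. The points far to the left are RAD50 (-0.90) in homologous recombination, CPSF2 (-0.69) in 3′ end processing and SETD1A (-0.71), the target of the guide.

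In the SETD1A complex and BOD1L1, a protein described as a partner of SETD1A, 3 of 11 tested genes rose and 3 fell, the target included, with a median of 0.048 log2. Over all tested genes 28.0% were called higher and 13.5% lower. RBBP5, a core subunit, rose by 0.24 log2 (limma adjusted p = 0.00735) and WDR82, which ties the complex to RNA polymerase II, by 0.13 log2 (limma adjusted p = 0.0325). HCFC1, an associated cofactor, fell by 0.19 on the log2 scale (limma adjusted p = 0.0121). The third fall was BOD1, by 0.12 on the log2 scale (limma adjusted p = 0.0263). BOD1L1, listed as BOD1L, measured 15.6 ± 0.934 and 16.3 ± 0.458 TPM (SD, n = 3 each; limma adjusted p = 0.399). Under either rescaling 1 rose and 3 fell, where 14.9% (median-ratio) and 18% (quantile) of all tested genes were called higher. Of all 11885 tested genes, 2333 (median-ratio) and 2056 (quantile) were then called lower. With any 1 of the 3 sgEmpty libraries or sgSETD1A replicate 3 left out, 1 rose, as with the block and with limma without its trend. The falls numbered 2 with replicate 2 or 3 of either group left out, with the block and with limma without its trend.

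The genes whose pattern over the 6 libraries was most like that of each member were ranked by Pearson's r of log2(TPM + 1), as a description. Since the libraries form 2 groups, r mostly reads a shared difference between groups, and all values of 1 library share its scaling. For CCNK the nearest were SLC45A4, PRAF2, S100A9, STX12 and DPY19L3, with r from 0.996 to 0.999, all called higher; 15.7% of all tested genes had an r above 0.9 with CCNK. For CDK12 they were PAFAH1B1, VOPP1, CCDC91, LLPH and SLC36A4, with r from 0.984 to 0.996, of which SLC36A4 alone was called. For CDK13 they were MNS1, POLR3B, EFNA5, SUPT6H and ATP5B, with r from 0.989 to 0.995, none of them called. An r above 0.9 was found for 1.91% of tested genes with CDK12 and for 4.10% with CDK13. Of all tested genes 41.5% were called, and genes picked for likeness to a member will tend to share its call. SUPT6H, a histone chaperone of elongation, is in the elongation list above, at 59.7 and 64.5 TPM.

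Genes beside the 3 loci were read from the RefSeq gene order of GRCh38.p14, with the 5 nearest on each side and any that overlap. CCNK overlaps SETD3 and CCDC85C, with differences of 0.061 and 0.039 log2 (limma adjusted p = 0.233 and 0.588). How reads in such overlaps were assigned is not stated in the labels. Of 4 tested neighbours of CCNK, 2 rose: BCL11B by 0.37 log2, at 1.96 and 2.84 TPM, and EML1 by 0.30 log2. As a background for these neighbours, 28.0% of all tested genes were called higher and 13.5% lower. Neither of the 2 tested neighbours of CDK12, MED1 and FBXL20, was called (limma adjusted p = 0.587 and 0.827, unadjusted p = 0.487 and 0.769). Beside CDK13, the 1 tested neighbour MPLKIP, listed as C7orf11, went from 47.8 ± 1.72 to 32.4 ± 1.11 TPM (SD, n = 3 each), a change of -0.55 log2 (limma adjusted p = 4.57e-05), opposite in sign to the difference of 0.13 log2 in CDK13.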

How the data were processed

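RNA-seq was deposited as 1 table of TPM values for 6 libraries, and the guide pool as 1 table of raw read counts per guide. The authors deposited TPM, which scales each library to a common total; a row with no gene name, holding the total of 1000000, was left out. Tools and build listed in the submitters' processing notes, without roles, are STAR 2.6.0c, RSEM 1.3.1, bcl2fastq 2.20.0 and hg19; per the labels' protocols, libraries were made with a stranded mRNA kit. RNA sequencing depth cannot be read from TPM and is unknown, and no count test was run. The count table as deposited by the authors held 10145466 reads at day 0 and 10255022 at day 14; here its guide names were searched for the 3 genes and its counts were used no further.

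Groups and replicate numbers came from sample titles. Genes whose TPM averaged 1 or more over the 6 libraries entered a limma fit (version 3.58.1, trend option, R 4.3.3) on log2(TPM + 1); the Benjamini-Hochberg adjustment covered all tested genes, and an adjusted p under 0.05 was a call. Fold changes on this scale understate the change of low genes. The fit was tested on simulated data. Single values were also compared with exact two-sided permutation tests over libraries. The members and lists were chosen with earlier results of these data known, and lists are described by counts and medians, with no set test; 1 further marker is not reported here. Named genes were the 3 members, SETD1A, BOD1L1, up to 4 called genes with the largest change per list, family members next in level, the 5 most alike genes per member and called neighbours, up to 3 per member; others were chosen after their values were seen. Alternatives were other pseudocounts (0.1 and 5), no filter or a mean of at least 5 TPM, median-ratio rescaling, quantile normalization, no trend, a replicate block and each library left out.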

Additional observations from a re-analysis of the deposited data

How the results depend on the processing

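CCNK was called higher under all 14 alternatives, with differences from 0.11 to 0.21 log2 and limma adjusted p from 0.00309 to 0.0421. CDK12 and CDK13 were called under none of the 14, with positive differences throughout, from 0.018 to 0.12 log2 (limma adjusted p 0.159 to 0.837) and from 0.051 to 0.15 log2 (limma adjusted p 0.101 to 0.543). Leaving out 1 library gave 0.17 to 0.21 log2 for CCNK, 0.068 to 0.12 for CDK12 and 0.085 to 0.15 for CDK13. With the replicate number as a block, CCNK kept its 0.19 log2 (limma adjusted p = 0.00746), CDK12 its 0.092 (0.242) and CDK13 its 0.13 (0.118). In that fit 4642 genes were called in place of 4932. The pair ratios had an exact sign-flip p = 0.25 each, the smallest that 3 pairs allow, so that test could not pass any ratio. The labels do not say whether same-numbered libraries were paired. Deviations of same-numbered libraries correlated at 0.085, -0.10 and 0.17, and not every library was most like its own number. So few values cannot decide whether the libraries were paired. The 3 ratios kept their signs under all alternatives, from 0.056 to 0.13, 0.039 to 0.10 and -0.070 to -0.00048 log2 with 1 library left out. Of all calls, 67.5% were higher with TPM as deposited (3327 of 4932), 43.1% after median-ratio rescaling (1766 of 4099) and 51.0% after quantile normalization (2142 of 4198). Depth limits are unknown, since TPM carries none.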
